A study of Homo sapiens with 12 samples.

Results

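The YAP target genes described here are 10 genes commonly read as output of the coactivator YAP: CCN1 (formerly CYR61), CCN2 (formerly CTGF), THBS1, ANKRD1, AXIN2, AMOTL1, AMOTL2, LATS2, AJUBA and TEAD1. They were chosen by name, with earlier results of these data known, and each was read from its probe set in the array table, the one with the highest mean where a gene had several. All 10 were among the 22395 named genes of the table. The 7 genes with a mean level of at least 5 on the log2 scale over the 12 arrays (CCN1, CCN2, THBS1, AMOTL2, LATS2, AJUBA and TEAD1) were tested with the other genes that passed, 5820 in all. ANKRD1, AMOTL1 and AXIN2 lay below that mean, and their values are given without a test.

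The cells were NCI-H1975, an established human lung adenocarcinoma line, and every culture, the untreated one included, carried the mutant EGFR alleles L858R and T790M that the labels give. The 4 groups were profiled on Affymetrix Human Gene 2.1 ST arrays: the combination of 1 µM erlotinib and 3 µM quinacrine at 6, 12, 24 and 48 h, 3 µM quinacrine alone at 6, 12 and 24 h, 1 µM erlotinib alone at 6, 12, 24 and 48 h, and 1 untreated array with no time in its label. Erlotinib inhibits the EGFR kinase, and the T790M allele is known to lower its effect. Quinacrine is an acridine compound used against malaria. There was 1 array for every pair of treatment and time, so n counts time points, an SD is the spread over the times of a group, and nothing in the labels says whether arrays came from separate cultures. A p-value therefore measures only the spread between these arrays.

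YAP and its relative TAZ (gene WWTR1) are carried into the nucleus when the Hippo kinases are inactive, and there they bind DNA through the TEAD factors. The kinases LATS1 and LATS2 phosphorylate YAP, which keeps it in the cytoplasm, and cell density, attachment and tension of the actin skeleton act on this step. In lung adenocarcinoma cells YAP activity is known as a route by which cells survive inhibition of EGFR. Among the genes listed, CCN1, CCN2 and THBS1 code for secreted matrix proteins, ANKRD1 for an ankyrin repeat protein of nucleus and sarcomere, AMOTL1, AMOTL2, LATS2 and AJUBA for proteins that act back on the pathway, TEAD1 for a DNA-binding partner of YAP, and AXIN2 for a scaffold protein better known as a target of Wnt signalling.

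The short motif GGAATG, the core that TEAD factors bind, was searched on both strands (CATTCC on the other) in RefSeq start-site windows of the build GRCh38.p14, which hold 250 bases before and 50 after an annotated start. Of the 10 genes, 7 had at least 1 window (9 windows, since AMOTL2 and AJUBA had a pair of starts each). The upstream parts of CCN2, ANKRD1 and THBS1 are shown because they hold the motif and belong to genes with a wide range over the arrays, as given with their levels. The sequences run 5′ to 3′ on the strand of the gene and end just before the start, with the motif in capitals.
CCN2 (chr6:131951373-131951622, minus strand): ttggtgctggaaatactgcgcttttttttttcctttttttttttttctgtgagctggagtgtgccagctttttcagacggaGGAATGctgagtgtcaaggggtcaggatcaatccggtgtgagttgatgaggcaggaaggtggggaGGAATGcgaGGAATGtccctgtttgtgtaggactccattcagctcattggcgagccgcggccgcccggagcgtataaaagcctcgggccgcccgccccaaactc
ANKRD1 (chr10:90921088-90921337, minus strand): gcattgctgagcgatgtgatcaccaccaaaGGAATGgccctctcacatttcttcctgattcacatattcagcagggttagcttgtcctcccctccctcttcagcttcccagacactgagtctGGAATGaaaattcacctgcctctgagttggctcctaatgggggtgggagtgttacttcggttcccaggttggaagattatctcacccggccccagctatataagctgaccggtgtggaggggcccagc
THBS1 (chr15:39580829-39581078, plus strand): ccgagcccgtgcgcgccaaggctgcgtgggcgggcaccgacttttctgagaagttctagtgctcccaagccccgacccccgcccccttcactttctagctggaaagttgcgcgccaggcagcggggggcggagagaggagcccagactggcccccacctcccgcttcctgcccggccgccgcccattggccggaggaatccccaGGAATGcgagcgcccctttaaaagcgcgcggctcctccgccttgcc

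The CCN2 window held 3 matches upstream of the start, at positions -169 to -164, -104 to -99 and -95 to -90 (counted back from the start). ANKRD1 held 2, at -220 to -215 and -128 to -123, and THBS1 held 1, at -46 to -41. One of the AMOTL2 windows held a match at -69 to -64, on the other strand, and one of the AJUBA windows a match at -59 to -54. LATS2 held one at 10 to 15 bases after the start, and the AMOTL1 window had no match. Thus 5 of the 9 windows held the motif upstream. Over all 35116 RefSeq windows, 11.9% held it at least once in the 250 upstream bases, 0.94% at least 2 times and 0.0826% at least 3 times. A match is a description of the letters and not a bound site.

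Other motifs were rarer in the windows of these genes. The AP-1 motif TGANTCA (both strands) lay upstream in ANKRD1, at -195 to -189, and in 6.57% of all windows. The TCF/LEF motif ATCAAAG (both strands) lay upstream in the AMOTL2 window that held the TEAD motif, at -101 to -95, and in 2.26% of all windows. The CArG box of SRF lay in none of the 9 windows and upstream in 1.16% of all windows. No match of one motif overlapped a match of another. CCN1, TEAD1 and AXIN2 had no window to search.

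**Figure D1:**
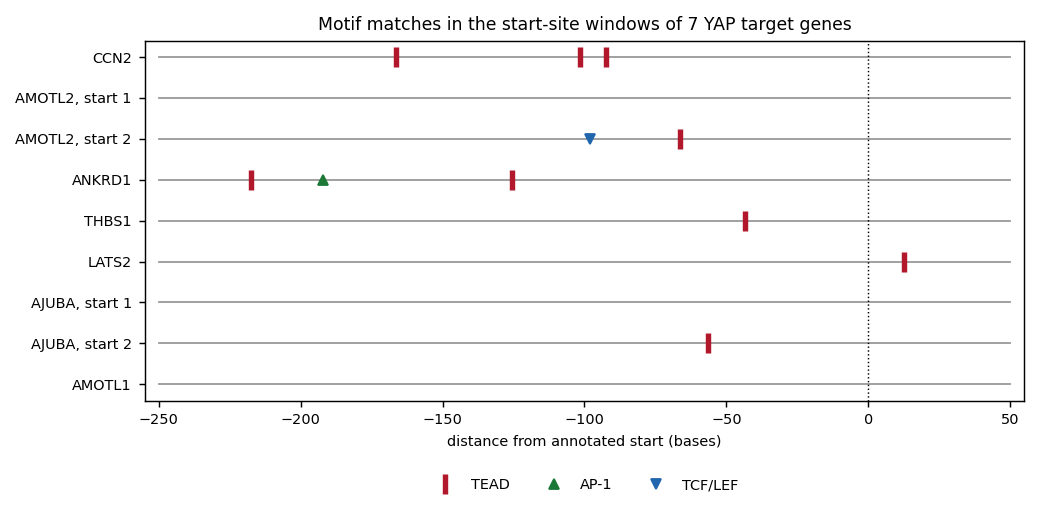
Motif matches in the 9 start-site windows of 7 YAP target genes, by distance from the annotated start in bases; bars mark the TEAD motif and triangles the AP-1 and TCF/LEF motifs. CCN2 has 3 TEAD matches, ANKRD1 2 and THBS1 1 upstream of the start.

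CCN1, a secreted protein that binds integrins and is among the most widely used readouts of YAP, kept a nearly level course with quinacrine present and a descending one with erlotinib alone. Its levels (probe set 16666738, log2 scale) were 8.83, 8.95, 8.78 and 8.62 at 6, 12, 24 and 48 h of the combination and 8.80, 8.70 and 8.76 at 6, 12 and 24 h of quinacrine. They were 9.04, 8.42, 7.85 and 7.28 at 6, 12, 24 and 48 h of erlotinib, and 9.11 on the untreated array, the highest of the 12. The erlotinib arrays of 12, 24 and 48 h lay below every combination and quinacrine array, while that of 6 h lay above all of them.

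CCN2, a matrix protein of the same family that acts with TGF-beta in fibrosis, was lower on the later erlotinib arrays as well, at levels close to the filter. Its levels (probe set 17023646) were 4.77, 5.27, 5.25 and 5.46 in the combination, 5.49, 5.27 and 5.58 in quinacrine, 5.31, 4.56, 4.76 and 4.55 in erlotinib, and 5.57 untreated. The 12, 24 and 48 h erlotinib arrays were the 3 lowest of the 12, the highest of them (4.76) just below the combination 6 h array (4.77). The erlotinib mean of 4.80 ± 0.36 (SD, n = 4) lay below the level used as filter, so CCN2 was tested through its other arrays.

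THBS1, a large matrix glycoprotein that restrains the growth of vessels and can activate latent TGF-beta, was lowest at the last time in each of the 3 treated groups. Its levels (probe set 16799315) were 9.05, 9.24, 8.79 and 8.15 in the combination, 9.30, 9.18 and 8.85 in quinacrine, 9.05, 8.65, 8.29 and 7.60 in erlotinib, and 9.13 untreated. At 12, 24 and 48 h the erlotinib array was the lowest of its time. The groups overlapped across times.

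ANKRD1, which binds titin in muscle and enters the nucleus as a cofactor, had the widest range of the 10 genes, 2.31 log2 units, and a mean of 4.06, below the filter. Its levels (probe set 16716478) were 4.13, 4.62, 4.10 and 5.21 in the combination, 3.86, 4.49 and 4.16 in quinacrine, 4.10, 3.76, 2.90 and 3.82 in erlotinib, and 3.57 untreated. The combination 48 h array was the only one at 5 or more, and the erlotinib 24 h array was the lowest. The lowest combination array and the highest erlotinib array had the same level, 4.10.

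The 4 genes that act back on the pathway varied less. AMOTL2 (probe set 16959441), a scaffold of cell junctions that binds YAP, ranged between 5.21 and 5.46 in the combination, 5.22 and 5.62 in quinacrine and 4.77 and 5.32 in erlotinib, against 5.36 untreated, and its lowest array was erlotinib 48 h. AJUBA (probe set 16790614), a LIM protein that binds the LATS kinases at junctions, had levels of 5.72, 5.65, 5.46 and 5.73 in the combination, 5.76, 5.64 and 5.49 in quinacrine, 5.55, 5.49, 5.16 and 5.10 in erlotinib, and 5.36 untreated. All 7 arrays with quinacrine lay above the untreated level of AJUBA, and the 24 and 48 h erlotinib arrays lay below it.

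LATS2 (probe set 16777259), the kinase that phosphorylates YAP, was highest on the untreated array (5.31) and lay between 4.79 and 5.16 in the combination, 4.71 and 5.05 in quinacrine and 5.06 and 5.15 in erlotinib. Its mean of 5.05 over the 12 arrays only just passed the filter. The quinacrine mean of LATS2, 4.92, lay below it, so that LATS2 was tested through its other arrays. AMOTL1 (probe set 16730268), a relative of AMOTL2, was low throughout, at 1.90 to 2.40 in the combination, 2.18 to 2.37 in quinacrine, 2.13 to 2.84 in erlotinib and 2.56 untreated. Its other probe set had a mean of 1.21.

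TEAD1 (probe set 16722189), the DNA-binding partner, was the steadiest of the 10. It lay between 7.53 and 7.81 in the combination, 7.66 and 7.82 in quinacrine and 7.58 and 7.93 in erlotinib, against 7.73 untreated. Its range over the 12 arrays was 0.40 log2 units, and 10.7% of the tested genes had a smaller range. For comparison, 95.5% of the tested genes had a smaller range than CCN1 (1.83), 94.2% a smaller one than THBS1 (1.70) and 73.2% a smaller one than CCN2 (1.03). AXIN2 (probe set 16847933) was near the bottom of the scale, at 1.49 to 1.86 in the combination, 1.39 to 2.04 in quinacrine, 1.50 to 1.59 in erlotinib and 1.38 untreated.

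**Figure D2:**
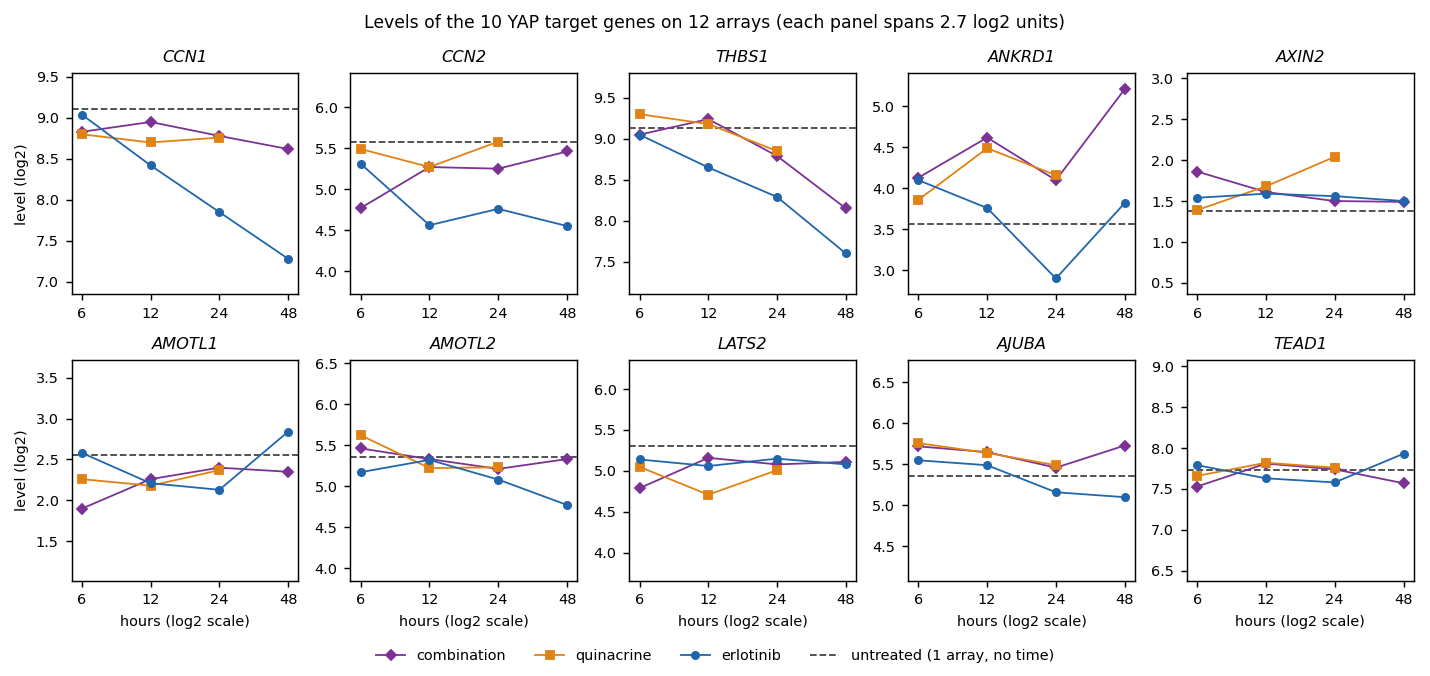
Levels of the 10 YAP target genes on the log2 scale against hours on a log2 scale, 1 point per array for combination, quinacrine and erlotinib, with the untreated array as a dashed line; every panel spans the same height. CCN1 goes down to 7.28 at 48 h of erlotinib and stays at 8.62 or more in the combination, while TEAD1 stays between 7.53 and 7.93.

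One array stood farthest apart. The combination 6 h array had the smallest interquartile range of all rows (2.04, against 2.26 to 2.88 on the others) and a median of 6.18 over the tested genes, against 6.385 to 6.56. Its difference to the erlotinib 6 h array had a median of -0.27 over all tested genes, where the medians at 12, 24 and 48 h were 0.14, 0.04 and -0.02. Differences at 6 h are to be read beside -0.27. The erlotinib 12 h array had the next smallest interquartile range, 2.26, and differences at 12 h are to be read beside 0.14. For CCN1, CCN2, THBS1, AJUBA and AMOTL2 the difference between combination and erlotinib is given with and without the combination 6 h array. The part of that array in results given only with it was not tested. Cells of the epithelial line gave epithelial signal on every array: CDH1 lay between 10.08 and 10.53 and EPCAM between 8.35 and 8.67. KRT8 and KRT18, keratins of simple epithelia, had means of 2.81 and 4.71 and were not tested. Of the fibroblast, endothelial and leukocyte markers read (6, 4 and 4 genes in the table), none reached the mean used as filter, and the highest single value was 4.10 for KDR on the combination 48 h array. In bulk RNA, fewer cells that express a gene and less RNA per cell cannot be told apart.

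Quinacrine added to erlotinib was compared with erlotinib alone over the 4 matched times. None of the 7 tested YAP target genes passed the threshold (limma adjusted p under 0.05), while 3.64% of all tested genes did, and 3 of the 7 had an unadjusted p under 0.05, against 20.8% of all tested genes. The log2 difference was above 0 for 5 of the 7 and below 0 for LATS2 and TEAD1, with a median of 0.32 beside -0.03 over all tested genes. These signs were the same with median centring and with cyclic loess scaling. CCN1 differed by -0.21, 0.53, 0.93 and 1.34 at 6, 12, 24 and 48 h. The difference over the 4 times was 0.65 (1.57-fold, SE 0.23, 95% interval 0.13 to 1.16), with a limma adjusted p = 0.159. Means were 8.80 ± 0.14 in the combination and 8.15 ± 0.76 in erlotinib (SD, n = 4 each), so the spread over times was wider in erlotinib.

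THBS1 came nearest to the threshold. It differed by 0.00, 0.59, 0.50 and 0.55 at the 4 times, and by 0.41 over them (1.33-fold, SE 0.12, 95% interval 0.14 to 0.68, adjusted p = 0.0976). THBS1 passed without the erlotinib 6 h array (0.52, adjusted p = 0.0295) and without the combination 6 h array (0.51, adjusted p = 0.0358), and over all alternatives its adjusted p lay between 0.0266 and 0.498. CCN1 passed without the erlotinib 6 h array (0.91, adjusted p = 0.022), was 0.83 without the combination 6 h array (adjusted p = 0.0665) and was 0.42 without either 48 h array (adjusted p = 0.395). Over its alternatives the adjusted p lay between 0.022 and 0.395. At 6 h neither gene was higher in the combination.

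CCN2 differed by -0.54, 0.71, 0.49 and 0.91 at 6, 12, 24 and 48 h, and by 0.39 over the 4 times (SE 0.21, 95% interval -0.08 to 0.87, adjusted p = 0.328). Without the combination 6 h array the CCN2 difference was 0.63, and without the erlotinib 6 h array it was 0.63 as well (adjusted p = 0.0509, the smallest over its alternatives). Without either 48 h array it was 0.22 (adjusted p = 0.669). AJUBA was higher in the combination at each of the 4 times (0.17, 0.16, 0.30 and 0.63), with 0.32 over them (SE 0.11, 95% interval 0.07 to 0.56, adjusted p = 0.145), and was 0.35 without the combination 6 h array and 0.21 without either 48 h array. AMOTL2 was higher at each time too, by 0.01 to 0.56, with 0.25 in all (SE 0.12, adjusted p = 0.297). The AMOTL2 difference was 0.27 without the combination 6 h array and 0.14 without either 48 h array. For LATS2 the difference was -0.07 (95% interval -0.35 to 0.21, adjusted p = 0.789) and for TEAD1 -0.07 (95% interval -0.34 to 0.20, adjusted p = 0.789). Of the untested genes, ANKRD1 differed by 0.03, 0.86, 1.20 and 1.39. With the filter lowered to a mean of 4, ANKRD1 was tested and gave 0.87 (SE 0.24, adjusted p = 0.11).

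Quinacrine alone was compared with erlotinib alone over the same fit. Again 0 of the 7 passed, beside 1.13% of all tested genes, and 3 of 7 had an unadjusted p under 0.05, against 17.6% of all. Of the 7 differences 6 were above 0 and that of LATS2 was below it, under both other scalings as well, with a median of 0.28 beside 0.01 over all tested genes. CCN2 had the largest, 0.66 (1.58-fold, SE 0.23, 95% interval 0.12 to 1.19, limma adjusted p = 0.196). Its differences at 6, 12 and 24 h were 0.18, 0.71 and 0.82. The 48 h combination and erlotinib arrays also enter this fit through the time terms, so a fitted value is not the mean of the matched differences. The CCN2 means were 5.45 ± 0.16 in quinacrine (SD, n = 3) and 4.80 ± 0.36 in erlotinib (SD, n = 4). THBS1 differed by 0.47 (1.39-fold, SE 0.13, 95% interval 0.17 to 0.77, adjusted p = 0.113), and at single times by 0.25, 0.53 and 0.56.

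Leaving out a 6 h array changed calls here as well: CCN2 and THBS1 passed without the erlotinib 6 h array and THBS1 without the combination 6 h array, which enters this fit through the time terms. The adjusted p lay between 0.0235 and 0.481 for CCN2 and between 0.0142 and 0.389 for THBS1 over all alternatives. CCN1 differed by -0.24, 0.28 and 0.91 at the 3 times. In the fit, to which the 48 h combination and erlotinib arrays contribute as well, CCN1 differed by 0.43 (SE 0.25, 95% interval -0.15 to 1.01, limma adjusted p = 0.423). With single arrays left out it lay between 0.26 (without the quinacrine 24 h array) and 0.74 (without the erlotinib 6 h array). AJUBA differed by 0.28 (SE 0.12, adjusted p = 0.262), AMOTL2 by 0.22 (adjusted p = 0.454), LATS2 by -0.18 (adjusted p = 0.555) and TEAD1 by 0.03 (adjusted p = 0.937). The untested ANKRD1 differed by -0.24, 0.73 and 1.26. This comparison and the previous one share the erlotinib arrays, so their values stand side by side and are not independent of each other.

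**Figure D3:**
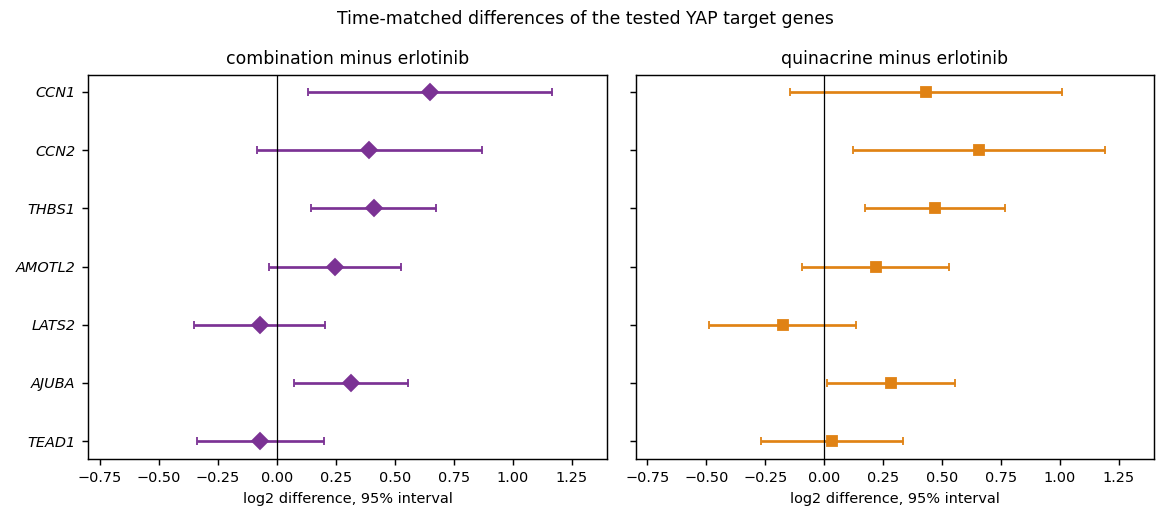
Time-matched log2 differences with 95% intervals for the 7 tested YAP target genes, combination minus erlotinib on the left and quinacrine minus erlotinib on the right. The intervals of CCN1, THBS1 and AJUBA on the left and of CCN2, THBS1 and AJUBA on the right lie above 0, and none of these genes passed after adjustment over 5820 genes.

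The combination was compared with quinacrine alone to read the effect of erlotinib on cells that also had quinacrine. No gene passed in this comparison (0% of 5820, with 47 genes at an unadjusted p under 0.05 by limma), and none of the 7 YAP target genes had an unadjusted p under 0.05. The differences were above 0 for 4 genes and below 0 for 3, and those of AMOTL2 and AJUBA turned below 0 with median centring. The difference was 0.22 for CCN1 (95% interval -0.36 to 0.79), -0.26 for CCN2 (95% interval -0.80 to 0.27) and -0.06 for THBS1 (95% interval -0.36 to 0.24), each with an adjusted p = 1. At 6, 12 and 24 h the differences were 0.03, 0.25 and 0.02 for CCN1 and -0.25, 0.06 and -0.06 for THBS1. The 48 h combination and erlotinib arrays also enter this fit through the time terms, without a quinacrine array at 48 h. The fitted values, 0.22 for CCN1 among them, are therefore not the means of these matched differences. For CCN1 the 95% interval of the fitted value takes in a difference as large as the 0.65 between combination and erlotinib. For THBS1 the interval ends below the 0.41 of that comparison.

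Against the single untreated array, whose spread was taken from the treated groups, 0 of the 7 passed by limma in each of 3 comparisons, and 1, CCN2 in erlotinib, had an unadjusted p under 0.05. The shares of all tested genes that passed were 0.0515% for the combination, 0.0344% for quinacrine and 0% for erlotinib, the last with 144 genes at an unadjusted p under 0.05 by limma. Of the 7 genes, 6 lay below the untreated level in the combination, 5 in quinacrine and 6 in erlotinib, with medians of -0.28, -0.02 and -0.28 beside medians of -0.01, 0.02 and 0.02 over all tested genes. THBS1 in quinacrine, at -0.02, turned above 0 with median centring. AMOTL2 in quinacrine, at -0.0033, had no settled side either, with values between -0.135 and 0.065 over its alternatives. CCN2 differed by -0.78 in erlotinib (1.71-fold lower, SE 0.30, 95% interval -1.43 to -0.12, unadjusted p = 0.0244, adjusted p = 0.999), against -0.38 in the combination and -0.12 in quinacrine. CCN1 differed by -0.32 in the combination (95% interval -1.32 to 0.69) and by -0.36 in quinacrine (95% interval -1.39 to 0.68), and its erlotinib arrays lay 0.07, 0.69, 1.26 and 1.83 below the untreated level at the 4 times.

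THBS1 differed from the untreated array by -0.32 in the combination (SE 0.47), -0.02 in quinacrine (SE 0.49) and -0.73 in erlotinib (SE 0.47). The change with time within each group counts as spread in this fit, which widens the intervals of CCN1 and THBS1. AJUBA was the one tested gene above the untreated level in both groups with quinacrine under every scaling, by 0.28 in the combination (SE 0.20, adjusted p = 0.668) and 0.27 in quinacrine (SE 0.20, adjusted p = 0.719). LATS2 differed by -0.28 in the combination, -0.39 in quinacrine and -0.20 in erlotinib. TEAD1 lay within 0.07 of the untreated level in each group mean. The untested ANKRD1 lay 0.56, 1.05, 0.53 and 1.64 above the untreated level in the combination, 0.29, 0.92 and 0.59 above it in quinacrine, and 0.53, 0.19, -0.67 and 0.25 from it in erlotinib.

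Change with time was fitted as 1 slope common to the 3 treated groups, in log2 units for each doubling of the hours. THBS1 fell by 0.37 log2 units per doubling (SE 0.06, 95% interval -0.49 to -0.24, adjusted p = 0.0169), the one YAP target gene to pass in any comparison made. Over all tested genes 2.3% passed, 118 with a slope above 0 and 16 below, and 4 of the 7 genes had an unadjusted p under 0.05, against 22.7% of all. Within single groups the THBS1 slope was -0.32 in the combination, -0.23 in quinacrine and -0.47 in erlotinib. The call on THBS1 was lost without the erlotinib 48 h array (adjusted p = 0.0535), without the quinacrine 24 h array (adjusted p = 0.0552) and without the combination 48 h array (adjusted p = 0.0745), the last time of each group, and its slope kept its sign in each. CCN1 had a shared slope of -0.28 (SE 0.09, adjusted p = 0.0969), AMOTL2 of -0.11 (adjusted p = 0.164) and AJUBA of -0.10 (adjusted p = 0.2). CCN2, LATS2 and TEAD1 had slopes of 0.01, 0.03 and 0.03, which turned below 0 with median centring and, for CCN2 and LATS2, with cyclic loess.

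A different slope in the combination than in erlotinib was looked for in a fit on the 8 arrays concerned. No gene of the 5820 passed (0%, with a smallest adjusted p of 0.0714 and 770 genes, or 13.2%, at an unadjusted p under 0.05 by limma), and 2 of the 7 YAP target genes had an unadjusted p under 0.05. CCN1 had a slope of -0.08 per doubling in the combination and -0.59 in erlotinib. The difference was 0.51 (SE 0.09, 95% interval 0.31 to 0.70, unadjusted p = 0.000344, adjusted p = 0.119), and its adjusted p lay between 0.0284 and 0.484 over the alternatives. For CCN2 the slopes were 0.21 in the combination and -0.21 in erlotinib, with a difference of 0.41 (SE 0.13, 95% interval 0.12 to 0.71, adjusted p = 0.25). Without the combination 6 h array the difference was 0.42 for CCN1 and 0.30 for CCN2.

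THBS1 differed in slope by 0.16 (95% interval -0.14 to 0.45, adjusted p = 0.631), and the value was -0.07 without the combination 6 h array. Of the 7 genes 6 had a difference above 0, with a median of 0.15 beside 0.07 over all tested genes, though those of AMOTL2 and LATS2 turned below 0 with cyclic loess. The scalings moved the arrays themselves: cyclic loess raised the median of the tested genes by 0.249 on the combination 6 h array and moved it by -0.106 on the quinacrine 24 h array. Every other array moved by 0.09 or less under either scaling.

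**Figure D4:**
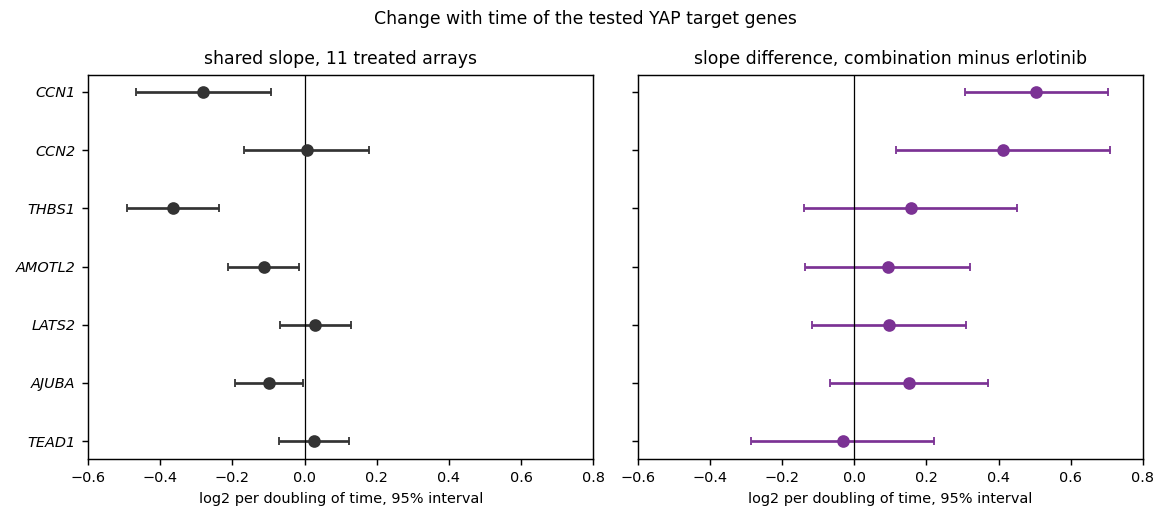
Change with time of the 7 tested YAP target genes in log2 units per doubling of time with 95% intervals, as the slope shared by the 11 treated arrays on the left and as the combination minus erlotinib difference in slope on the right. THBS1 lies at -0.37 on the left, and CCN1 and CCN2 lie at 0.51 and 0.41 on the right.

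The 10 genes did not move as one over the 12 arrays. The Pearson correlation was highest for CCN1 with THBS1 (0.87), AMOTL2 with AJUBA (0.81) and CCN1 with AMOTL2 (0.75), and it was 0.71 for CCN1 with CCN2. TEAD1 correlated with CCN1 at -0.18, with CCN2 at 0.09 and with THBS1 at -0.07, and LATS2 with CCN1 at 0.00. These values describe 12 arrays that share treatments and times.

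Among tested genes outside the lists, those whose level followed CCN1 most closely over the 12 arrays were CDV3 (0.92), NOL11 (0.91), a factor of ribosome biogenesis, and PPIF (0.91), the mitochondrial cyclophilin D. For CCN2 they were DUS3L (0.91), PITRM1 (0.90), a mitochondrial protease, and PLXNA3 (0.88), a semaphorin receptor. For THBS1 they were LINC02984 (0.96), the glycolytic enzyme gene PGK1 (0.95) and CORO1C (0.91), an actin-binding coronin. For TEAD1 they were FNDC3B (0.87), SNX13 (0.86) and PON2 (0.85). PGK1 spanned 6.74 to 7, CDV3 7.83 to 8.40 and FNDC3B 8.15 to 8.80 over the arrays. These genes were picked as the highest of all tested genes outside the lists, over 12 arrays that share treatments and times. The height of their correlations is therefore no sign of a link.

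Other targets of YAP and TEAD from a list of 17 genes had 12 tested members. In the combination against erlotinib 2 rose, 0 fell and 10 did not pass, where 3.64% of all tested genes passed (83 higher and 129 lower), with a median of 0.02 beside -0.03 over all tested genes. F3, which codes for tissue factor, the starter of blood clotting, had levels of 7.30, 7.51, 7.71 and 8.04 in the combination, 7.59, 7.41 and 7.76 in quinacrine, 6.85, 6.55, 5.89 and 5.63 in erlotinib, and 6.96 untreated. All 7 arrays with quinacrine lay above the untreated level of F3 and all 4 erlotinib arrays lay below it. F3 was 2.66-fold higher in the combination than in erlotinib (log2 1.41, SE 0.28, limma adjusted p = 0.035), and its difference widened from one time to the next (0.45, 0.96, 1.82 and 2.41).

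NUAK2, a kinase of the AMPK family that acts on the actin skeleton, had levels of 6.73, 6.82, 7.03 and 6.97 in the combination, 6.43, 6.63 and 7.03 in quinacrine, 6.38, 5.41, 5.57 and 5.65 in erlotinib, and 6.63 untreated. It was 2.20-fold higher in the combination than in erlotinib (log2 1.14, SE 0.21, adjusted p = 0.0333), and its combination and erlotinib arrays did not overlap. In quinacrine against erlotinib 0 of the 12 passed by limma (2 had an unadjusted p under 0.05), with F3 at 1.32 (adjusted p = 0.0821), NUAK2 at 0.94 (adjusted p = 0.0942) and ASAP1, a regulator of Arf proteins, at 0.23 (adjusted p = 0.301).

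The call was lost in 9 of 11 fits that each left out 1 array for F3 and in 8 of 11 for NUAK2, while the differences lay between 1.08 and 1.67 for F3 and between 0.99 and 1.42 for NUAK2. Leaving out a quinacrine array left both differences as they were, on fewer arrays. F3 kept its call if either the erlotinib 6 h array or that of the combination at 6 h was left out. NUAK2 kept it without the erlotinib 6 h, quinacrine 6 h or combination 6 h array. The NUAK2 call was lost with the combination 6 h and erlotinib 12 h arrays dropped together. Both calls were also lost without the filter, with times up to 24 h, and with only the combination and erlotinib arrays in the fit. In that last fit the limma adjusted p was 0.135 for F3 and 0.113 for NUAK2. Over all alternatives the adjusted p lay between 0.0109 and 0.146 for F3 and between 0.000996 and 0.144 for NUAK2.

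TGFB2, a TGF-beta ligand, was the one gene of the 12 to pass for the slope with time. Its levels were 8.29, 8.23, 7.81 and 7.70 in the combination, 8.67, 8.18 and 7.77 in quinacrine, 8.58, 8.35, 7.92 and 7.98 in erlotinib, and 8.58 untreated. In each group the 24 h array lay below those of 6 and 12 h, and the groups overlapped. TGFB2 fell by 0.26 log2 units per doubling of time (SE 0.05, adjusted p = 0.0202). The call was lost without the quinacrine 6 h, quinacrine 24 h or combination 48 h array. It was also lost without the filter, with linear hours, and with the combination 6 h and erlotinib 12 h arrays dropped together. The limma adjusted p lay between 0.00622 and 0.112 over all alternatives, and the sign stayed.

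Hippo kinases and their regulators, a list of 13 with 12 genes in the table and 7 tested, had 1 member that fell and none that rose in both comparisons with erlotinib, in which 3.64% of all tested genes passed for the combination and 1.13% for quinacrine. NF2 codes for merlin, a membrane-linked protein that switches the Hippo kinases on. Its levels were 7.66, 7.87, 7.83 and 7.94 in the combination, 7.74, 7.86 and 7.73 in quinacrine, 8.65, 8.51, 8.50 and 8.29 in erlotinib, and 8.64 untreated. All 7 arrays with quinacrine lay below all 4 erlotinib arrays and the untreated one. NF2 fell by 0.66 log2 units in the combination relative to erlotinib (1.58-fold, SE 0.11, adjusted p = 0.0291) and by 0.72 in quinacrine relative to erlotinib (1.65-fold, SE 0.13, adjusted p = 0.0448).

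Each of the NF2 calls was lost in 7 of 11 fits that left out 1 array, with adjusted p between 0.00808 and 0.141 for the combination and between 0.00594 and 0.256 for quinacrine over all alternatives. Both calls stayed without the erlotinib 6 h, erlotinib 48 h, combination 6 h or combination 48 h array. The call for the combination was lost with the combination 6 h and erlotinib 12 h arrays dropped together. That for quinacrine was lost with the filter at a mean of 4. Both were lost without the filter, and with only the arrays of the treatments compared in the fit. In that last fit the limma adjusted p was 0.128 for the combination and 0.0547 for quinacrine. The other 6 tested members did not pass. Among them WWC1, which codes for the Hippo regulator KIBRA, differed by 0.32 between combination and erlotinib (adjusted p = 0.306). LATS1, the kinase related to LATS2, had a mean of 4.72 and was not tested.

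Of the YAP coactivators and TEAD factors, 3 of 7 were tested and none passed in the comparisons with erlotinib (0 of 3 at an adjusted p under 0.05 by limma, and 1 of 3 at an unadjusted one in the combination). TEAD4 had levels of 6.89, 6.61, 6.91 and 6.94 in the combination, 6.67, 6.48 and 6.78 in quinacrine, 6.68, 6.36, 6.66 and 6.01 in erlotinib, and 6.57 untreated. It differed by 0.41 between combination and erlotinib (SE 0.13, adjusted p = 0.131) and by 0.16 between quinacrine and erlotinib (adjusted p = 0.62). YAP1 itself had levels of 6.11, 6.80, 6.67 and 6.74 in the combination, 6.21, 6.47 and 6.74 in quinacrine, 6.29, 5.94, 6.19 and 6.69 in erlotinib, and 6.02 untreated. The groups of YAP1 overlapped, and the combination exceeded erlotinib by 0.30 (SE 0.16, adjusted p = 0.339). WWTR1, the gene of TAZ, had a mean of 4.86 and was not tested.

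Further programmes share targets with YAP. Of 15 SRF and MRTF target genes, which respond to actin, 7 were tested: in the combination against erlotinib, where 3.64% of all tested genes passed, SRF rose and 6 did not pass. SRF, the factor itself, had levels of 8.07, 8.18, 8.09 and 8.02 in the combination, 8.20, 8.05 and 7.98 in quinacrine, 7.79, 7.59, 7.58 and 7.60 in erlotinib, and 7.80 untreated. The 7 arrays with quinacrine lay above the other 5. SRF was 1.37-fold higher in the combination than in erlotinib (log2 0.45, SE 0.09, adjusted p = 0.0401), and 0.42 higher in quinacrine, where it did not pass (adjusted p = 0.0888). The muscle-type target MYL9 differed by -0.43 (adjusted p = 0.256) and VCL, the gene of vinculin, by 0.22 (adjusted p = 0.306). In quinacrine against erlotinib 0 of the 7 passed by limma, and 1 had an unadjusted p under 0.05.

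AP-1 subunits, which often bind beside TEAD factors, had 5 of 8 genes tested, of which JUNB rose and 4 did not pass in the combination against erlotinib, beside 3.64% of all tested genes that passed. JUNB had levels of 9.25, 9.38, 9.69 and 9.70 in the combination, 9.49, 9.43 and 9.57 in quinacrine, 8.97, 8.79, 9.14 and 8.81 in erlotinib, and 9.07 untreated. It was 1.49-fold higher in the combination (log2 0.58, SE 0.12, adjusted p = 0.035), and its combination arrays did not overlap its erlotinib arrays. That was also the case for F3, NUAK2, NF2 and SRF. All of these genes were named for passing in this comparison, so the gap is no separate support. The share of all tested genes with such a gap was not counted. In quinacrine against erlotinib 0 of the 5 subunits passed by limma and 2 had an unadjusted p under 0.05: JUNB at 0.58 (adjusted p = 0.0691) and JUND at -1.10 (adjusted p = 0.242). The quinacrine mean of JUND, 4.56, lay below the level used as filter, with 3.24 at 6 h, so that JUND was tested through its other arrays. The calls on SRF and JUNB were each lost in 9 of 11 fits that left out 1 array and were kept without the erlotinib 6 h or combination 6 h array. The call on SRF was lost with the combination 6 h and erlotinib 12 h arrays dropped together. Both calls were also lost without the filter, with the filter at a mean of 4, with times up to 24 h, and with only the combination and erlotinib arrays in the fit. In that last fit the limma adjusted p was 0.173 for SRF and 0.14 for JUNB. Over all alternatives the adjusted p lay between 0.0112 and 0.173 for SRF and between 0.0101 and 0.152 for JUNB.

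**Figure D5:**
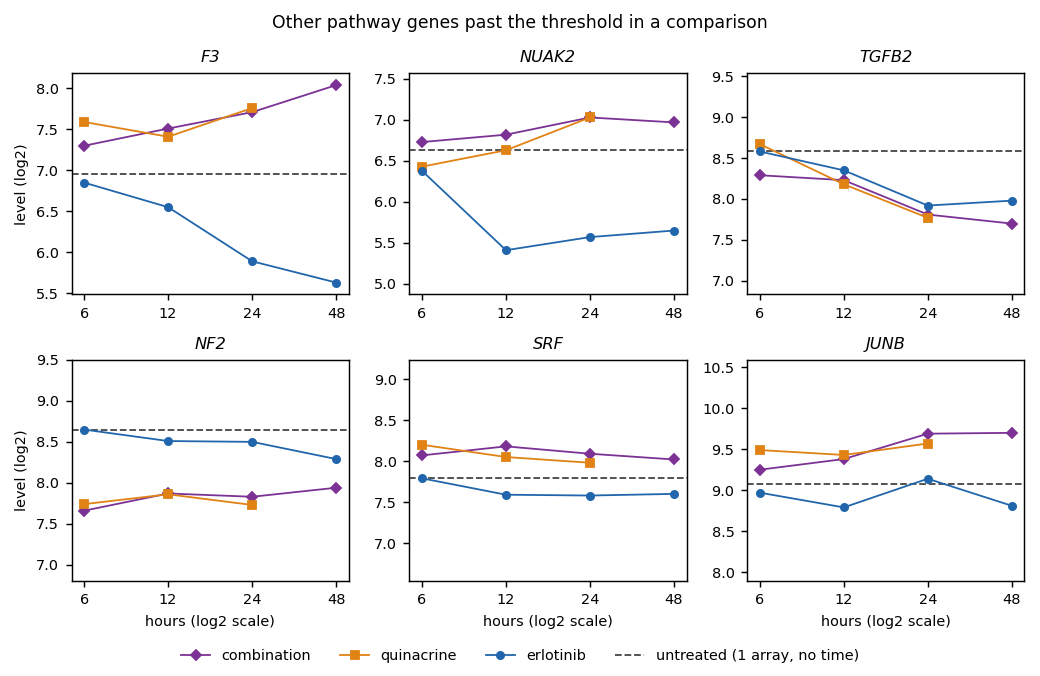
Levels on the log2 scale against hours on a log2 scale for 6 other genes of the pathway lists that passed the threshold in a comparison, 1 point per array, with the untreated array as a dashed line; every panel spans the same height. F3 ends at 8.04 in the combination and at 5.63 in erlotinib at 48 h, and NF2 lies between 7.66 and 7.94 on the arrays with quinacrine.

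The remaining lists held few tested genes, and none of these passed against erlotinib by limma. Of the CCN and thrombospondin relatives 2 of 7 were tested, and 1 of them had an unadjusted p under 0.05 in each comparison with erlotinib. CCN3, which often opposes CCN2, had levels of 5.31, 5.99, 6.40 and 7.23 in the combination, 5.45, 5.70 and 6.40 in quinacrine, 4.97, 5.08, 4.75 and 4.67 in erlotinib, and 4.93 untreated. All 7 arrays with quinacrine lay above the other 5 for CCN3, and the share of all tested genes with such a split was not counted. CCN3 just missed the threshold between combination and erlotinib (log2 1.37, SE 0.31, limma adjusted p = 0.051). It differed by 1.12 between quinacrine and erlotinib (limma adjusted p = 0.141). Its erlotinib mean of 4.87 and its untreated level of 4.93 lay below the level used as filter, so that CCN3 was tested through its arrays with quinacrine. CCN5 differed by 0.19 between combination and erlotinib (adjusted p = 0.572).

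Of 9 TGF-beta and SMAD target genes 3 were tested and 0 passed in either comparison with erlotinib, adjusted or unadjusted: TGFBI differed by 0.01, ID1 by -0.14 and PMEPA1 by 0.15 between combination and erlotinib. Of 9 Wnt target genes, the company of AXIN2, 2 were tested and 1, ZNRF3, had an unadjusted p under 0.05 in quinacrine against erlotinib. ZNRF3, a ligase that removes Wnt receptors, differed by 0.26 between combination and erlotinib (adjusted p = 0.284), and DKK1, a secreted Wnt inhibitor, by -0.11 (adjusted p = 0.709). AXIN2 itself differed from erlotinib by 0.32, 0.02, -0.06 and -0.01 at the 4 times of the combination and by -0.15, 0.09 and 0.48 at the 3 times of quinacrine. Of the 6 tested epithelial markers 0 passed against erlotinib by limma (1 at an unadjusted p under 0.05 in each comparison, MUC1).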

How the data were processed

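Total RNA of H1975 cells had been hybridised to Affymetrix arrays, 1 array for each treatment and time. The deposited table holds log2 values that the authors had made with RMA in Affymetrix Expression Console 1.30, per the labels and the submitters' processing notes. Their design text names hg19 probe set annotation and a log2 scale. RMA subtracts background, makes the probe distributions of arrays alike and sums probes into a probe set, which can remove a shift common to most genes. The deposited values still differed between arrays. Their interquartile ranges were 2.04 to 2.88, and their medians over the tested genes were 6.18 to 6.56. The number of arrays limits the precision.

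Of 53617 probe sets 23871 had 1 gene symbol, 1842 several and 27904 none. Of these symbols 22569 matched RefSeq, which changed 90, and the probe set of highest mean stood for a gene (632 genes had several), giving 22395 named genes. The 5820 genes (26%) with a mean of at least 5 entered linear models fitted by limma (3.58.1, under R 4.3.3; lmFit, then eBayes). In each of 8 comparisons p-values were adjusted over all of them by the method of Benjamini and Hochberg, and the threshold was 0.05. Treatments were compared with time as a factor over the 11 treated arrays (5 residual degrees of freedom). Groups were set against the untreated array without a time term (8), on the assumption that it varies like the treated ones. Time entered as log2 hours for slopes (7) and for the combination against erlotinib difference in slope (4). Levels are not compared between probe sets. The fits were first tested on simulated data with known changes.

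The 10 genes and all lists were chosen with earlier results of these data known. From each other list, genes past the threshold were named, and otherwise up to 3 tested genes with the smallest p. For CCN1, CCN2, THBS1 and TEAD1 the 3 genes outside the lists with the highest correlation were named. LATS1, WWTR1, KRT8, KRT18, CDH1, EPCAM, KDR and IGFBP3 fall outside that rule and were named after their values had been seen. The alternatives were the filter, median centring, cyclic loess, the mean of all probe sets of a gene, array weights, a trended prior variance, times up to 24 h, no time term, the arrays of both treatments alone, linear hours, and each array left out. Columns of the table that belong to no sample numbered 0.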

Additional observations from a re-analysis of the deposited data

Results flagged for a closer look

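SRF on the erlotinib 6 h array, at 7.79, lay farther from the other 3 erlotinib arrays (7.58 to 7.60) than a gap test (that of Dixon) allows at the 95% level. Chance flags about 1 in 20 such groups. For F3 every combination and quinacrine array lay above the untreated level and every erlotinib array below it, with means that differed by 1.41 between combination and erlotinib and by 1.357 between quinacrine and erlotinib. The same opposite sides of the untreated level were seen for NUAK2 between combination and erlotinib, with a difference of means of 1.135. They were also seen for SRF, with 0.45 between combination and erlotinib and 0.437 between quinacrine and erlotinib. That the effects against the single untreated array lay on opposite sides was not tested.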

How the results depend on the processing

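Setting names follow the alternatives listed with the processing; dropping the combination 6 h and erlotinib 12 h arrays together was chosen after seeing the data, since they had the narrowest spread of values. Of the YAP target genes, 0 passed in combination versus erlotinib, and 1 with cyclic loess (THBS1), 2 with array weights (CCN1 and THBS1), 1 with a trended prior (THBS1) and 0 to 2 when single arrays were left out. In quinacrine versus erlotinib 0 passed, and 1 with cyclic loess (THBS1), 2 with array weights (CCN2 and THBS1), 1 with a trended prior (THBS1) and 0 to 2 with single arrays left out. LATS2 passed in quinacrine versus untreated with array weights, as 1 gene against 0. For the slope 1 passed, and 0 without a filter, and 0 to 1 with single arrays left out. For the slope difference 0 passed, and 1 with a trended prior (CCN1). The signs that turned are as follows, apart from those of values that rounded to 0. With that pair of arrays dropped, LATS2 in combination versus erlotinib was 0.0560, TEAD1 in quinacrine versus erlotinib -0.0500, and in combination versus quinacrine CCN2 was 0.0140 and THBS1 0.0600. In the same setting the slopes of CCN2 and LATS2 were -0.1058 and -0.0192, and the slope differences of THBS1 and LATS2 -0.0764 and -0.0086. Up to 24 h, TEAD1 in combination versus erlotinib was 0.0267 and AJUBA in erlotinib versus untreated 0.0400. In combination versus quinacrine AMOTL2 was -0.0242 with median centring and with no time term, and -0.0233 up to 24 h and with the arrays of both treatments alone, and AJUBA was -0.0204 with centring and -0.0200 in the last pair of settings. THBS1 in quinacrine versus untreated was 0.0067 with centring and 0.0169 with array weights. Slopes with centring were -0.0333 for CCN2, -0.0100 for LATS2 and -0.0138 for TEAD1, and with cyclic loess -0.0739 for CCN2 and -0.0522 for LATS2. Slope differences were -0.0183 for AMOTL2 and -0.0182 for LATS2 with cyclic loess, and -0.0272 for THBS1 and -0.0084 for LATS2 with array weights. With single arrays left out, values that turned ranged in combination versus erlotinib between -0.1614 and 0.0374 for LATS2 and -0.14 and 0.0267 for TEAD1, and in quinacrine versus erlotinib between -0.05 and 0.102 for TEAD1. In combination versus quinacrine they ranged between -0.38 and 0.014 for CCN2, -0.0713 and 0.1338 for AMOTL2, -0.12 and 0.06 for THBS1, -0.0262 and 0.232 for LATS2, and -0.02 and 0.076 for AJUBA. Against untreated they ranged between -0.07 and 0.0133 for AMOTL2 in the combination, -0.115 and 0.11 for THBS1 and -0.02 and 0.06 for TEAD1 in quinacrine, and -0.11 and 0.04 for AJUBA in erlotinib. The slopes ranged between -0.0844 and 0.1228 for CCN2, -0.015 and 0.0519 for LATS2 and -0.0094 and 0.055 for TEAD1, and the slope differences between -0.006 and 0.224 for AMOTL2, -0.074 and 0.341 for THBS1, -0.016 and 0.154 for LATS2, and -0.157 and 0.11 for TEAD1. In all, 1318 values were marked the same, 85 weaker (a call lost), 28 stronger (a call gained) and 57 turned in sign. Some of them are counts of genes that passed, so a call can enter more than once. An untested gene was marked the same if it moved by less than its SE. A value that rounded to 0 was never marked as turned. TEAD1 in erlotinib versus untreated (0.0025) lay between -0.0633 and 0.0533 and AMOTL2 in quinacrine versus untreated (-0.0033) between -0.135 and 0.065, all marked the same. The cause of these changes was not tested. In some fits with array weights limma warned that the weights had not converged, so the values of that setting are uncertain. The count of all genes that passed in combination versus erlotinib, 212 (83 higher and 129 lower), was 51 without a filter, 403 with centring (100 and 303), 476 under loess (229 and 247), 380 with array weights, 34 up to 24 h, 6 with the arrays of both treatments alone and 6 to 322 with single arrays left out. In quinacrine versus erlotinib 66 passed, and 28, 175, 316, 682 and 178 without a filter, with centring, cyclic loess, array weights and a trended prior, 41 up to 24 h, 106 with no time term, and 0 to 288 with single arrays left out. Array weights gave 809 in combination versus untreated, where 3 passed, and 494 in quinacrine versus untreated, where 2 passed (9 without the pair of arrays); single arrays left out gave 0 to 5 in each. In erlotinib versus untreated 0 passed, and 1 without a filter. For the slope 134 passed (118 higher and 16 lower), and 28 without a filter, 112 after centring (80 and 32) and 204 under loess (142 and 62), 216 with a trended prior, 50 with linear hours, 38 without the pair of arrays and 14 to 863 with single arrays left out. For the slope difference 0 passed, and 15 with a trended prior and 0 to 24 with single arrays left out. Arrays were matched by time in the fits of treatments, and the labels give no replicate numbers that could serve as a further block.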

Other observations

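IGFBP3, a YAP target that codes for a binding protein of insulin-like growth factors and had too low a mean to be tested, had levels of 3.51, 4.80, 4.85 and 5.74 in the combination, 4.64, 4.86 and 5.17 in quinacrine, 4.10, 4.18, 3.80 and 3.91 in erlotinib, and 4.53 untreated. Its combination 48 h array was the highest of the 12 and its combination 6 h array the lowest. The slope difference between combination and erlotinib was above 0 for 12 of 12 tested genes of the list of other YAP targets, with a median of 0.11 beside 0.07 over all tested genes. The share of all tested genes above 0 was not counted, so the 12 of 12 is not read as a trait of these targets. The combination 6 h array, with a median of 6.18 over the tested genes, enters each of these slopes, and its part was not tested. The slope difference was also above 0 for 5 of 5 AP-1 subunits, 6 of 7 Hippo genes, 6 of 7 SRF and MRTF targets and 4 of 6 epithelial markers. None of the 12 passed by limma, as was the case for all 5820 genes.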
